A study of Equus caballus with 19 samples.

Results

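The 37 genes described here belong to glycolysis and to the cellular response to low oxygen. Of these, 26 take glucose from uptake to lactate or govern the entry of pyruvate into the mitochondrion, and 11 encode subunits of hypoxia-inducible factor (HIF), its oxygen sensors and its known targets. They were taken by gene name for their known roles, and the rule uses no measured value, although earlier results of these data were known when the list was drawn up. Each name was found once in both tables of normalised counts, as 37 of 29196 gene names, and all 37 passed the filter on low values in both batches.

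Glycolysis splits glucose into pyruvate, and lactate dehydrogenase then turns pyruvate into lactate, which leaves the cell through monocarboxylate transporters. Phosphofructokinase is the main controlled step, and the bifunctional PFKFB enzymes set the level of its activator, fructose 2,6-bisphosphate. HIF is a pair of proteins whose alpha subunit (HIF1A, or EPAS1 in HIF-2) is marked for destruction by the EGLN prolyl hydroxylases when oxygen is present, so that its activity is set largely at the level of protein stability. Stable HIF switches on most glycolytic genes as well as BNIP3, ANKRD37, CA9, NDRG1, ADM and VEGFA. Tendon is sparsely vascularised, and tenocytes, its resident fibroblasts, are known for a low oxygen consumption and a reliance on glycolysis.

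Primary wild-type tenocyte lines were isolated from the superficial digital flexor tendon of adult Thoroughbred horses, each line from 1 donor, and were expanded as monolayers before use. All libraries, controls included, came from cells held for 14 days in gels of bovine type I collagen with high-glucose medium and serum. In the first batch, 5 lines (here lines 1 to 5) were each sequenced as a control gel and as a gel given the cytokine interleukin 1 beta (IL-1β) at 1 nM, giving 10 libraries. In the second batch, 3 other lines (6 to 8) were each sequenced as control, with IL-1β at 1 nM, and with IL-1β at 1 nM plus the interleukin 1 receptor antagonist protein (IL1Ra) at 100 ng/ml, giving 9 libraries. No library was labelled as IL1Ra alone or as low oxygen.

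Normalised counts per library summed to between 43393900 and 49198000 in the first batch, and the second batch had 24964100 to 34602000. Each batch was normalised on its own, so levels are compared only within a batch, and levels of different genes are not compared because no gene lengths were used. The RefSeq annotation places another gene over 13 members (SLC2A3, PFKM, PFKP, PFKFB3, PGK1, ENO1, ENO2, SLC16A3, PDK3, HIF1A, BNIP3, ANKRD37 and NDRG1), and the strand setting of the counting is not given in the sources used here, so their counts are uncertain to that extent. The type I collagen gene COL1A1 had at least 40715 normalised counts in every library, whereas the tenocyte marker TNMD did not exceed 1.00, the leukocyte markers PTPRC and CD3E did not exceed 6.46, and the endothelial marker CDH5 did not exceed 3.49. Another endothelial marker, PECAM1, reached 73.2. Its first-batch medians were 9.80 in control and 27.5 with IL-1β. Of the markers tested in the first batch, 7 of 9 tenocyte markers and 3 of 5 mural markers were lower with IL-1β and DE. Of the tenocyte markers, 1 was higher (log2-fold change 0.73) and passed the adjusted p with the line as a block. The 1 chondrocyte marker tested was lower and DE (log2-fold change -7.55). The summed chondrocyte list ranged from 6343 to 40676 normalised counts in control and from 14.3 to 874 with IL-1β. The 1 leukocyte marker tested was higher with IL-1β and DE (log2-fold change 2.64). Of 2 endothelial markers tested, 1 was higher and 1 lower (log2-fold changes 1.68 and -1.53). Without the block 0 were DE, and with it only the higher one was. The summed endothelial list ranged from 22.8 to 50.2 normalised counts in control and from 17.5 to 87.9 with IL-1β. In the second batch none of these markers was DE without the block, and with it 3 of 9 tenocyte markers, 1 of 5 mural markers and the chondrocyte marker were lower with IL-1β. With the block, 1 of 3 leukocyte markers was higher there. In the first batch, the macrophage marker CD68 ranged from 56.4 to 173 normalised counts in control and from 296 to 1359 with IL-1β. The summed leukocyte list ranged from 60.2 to 2076 and from 311 to 3713 there. In the second batch, CD68 ranged from 66.6 to 287 in control and from 181 to 1769 with IL-1β. The summed list ranged from 231 to 1272 and from 676 to 3054. The part of these shifts in the results below was not tested, and in such bulk RNA fewer cells of a type and less RNA per cell cannot be told apart.

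Among the libraries, 1 control and 1 IL-1β library lay furthest from the others of their group for these genes. The line 8 control gel of the second batch was the lowest of its 3 controls for 14 of the 15 enzymes from hexokinase to pyruvate kinase, with a median log2 difference of -0.89 from the other two lines, while the median over all genes was -0.01. The line 4 IL-1β gel of the first batch was the highest of its 5 for 14 of the 15, with a median of 0.55 above the other lines. Other libraries deviated less. The line 1 IL-1β gel was the lowest for 9 of the 15, with a median difference of -0.44. Among first-batch controls, line 3 was the lowest for 10 (-0.32) and line 5 the highest for 11 (0.26). The line 6 IL-1β gel of the second batch was the lowest for 11 (-0.29). For the second batch, the summaries over the members and the genes that turn most on line 8 are therefore also given without it.

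The first question was which of the genes IL-1β changed over 14 days. In the first batch, 9 of the 37 were differentially expressed (DE: adjusted p under 0.05 in limma and a log2-fold change of at least 1 in either direction). PFKFB3, PDK4 and EPAS1 rose, which is 8.11% of the members against 4.91% of the 14719 genes tested. PFKP, SLC16A3, BNIP3, ANKRD37, CA9 and NDRG1 fell, which is 16.2% of the members against 7.9% of all genes. The median log2-fold change of the 37 was -0.39, against -0.0034 over all genes tested, and 25 of them were lower and 12 higher. With the tenocyte line as a block in the fit, 11 were DE (16.2% of all genes), the additions being ENO2 and PDK1, both lower. By the adjusted p alone, 7 were higher (13.1% of all genes) and 7 lower (14.6%). Control and IL-1β libraries did not overlap for 9 members, or 24.3%, against 19.5% of all genes.

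**Figure D1:**
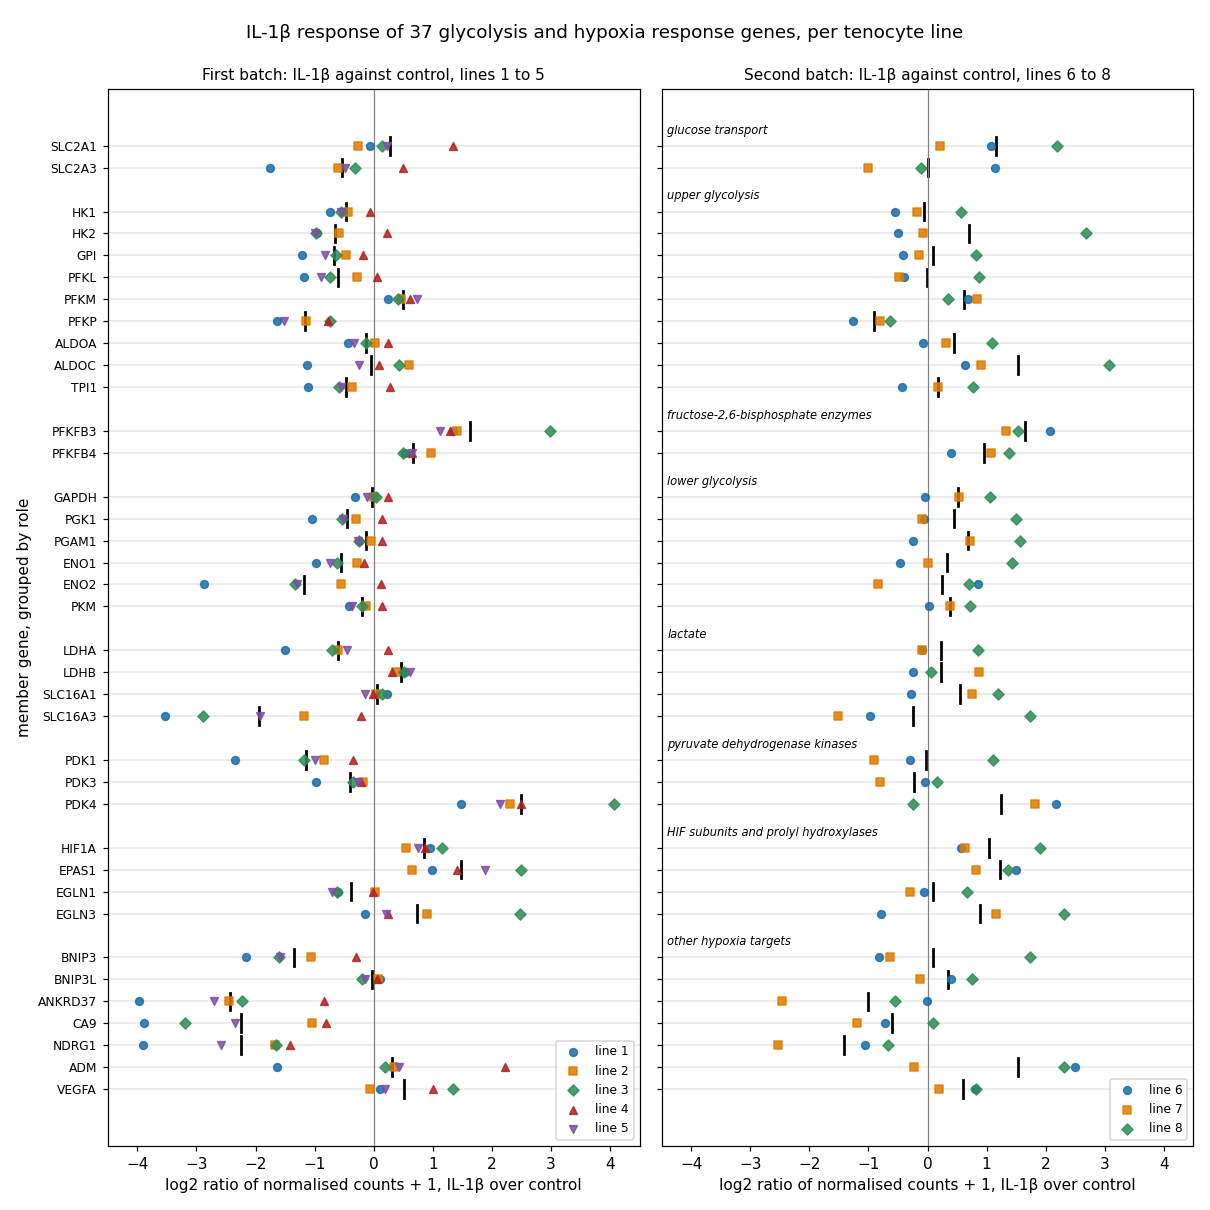
Each point is the log2 ratio of IL-1β over control (normalised counts plus 1) in 1 tenocyte line, and each black bar is the mean over the lines of that batch, for the 37 members grouped by role. In the first batch (left) the points of PFKFB3, PDK4, HIF1A and EPAS1 all lie above 0 and those of PFKP, SLC16A3, BNIP3, ANKRD37, CA9 and NDRG1 all lie below 0, and in the second batch (right) line 8 lies above 0 for 32 of the 37.

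Of the glucose transporters, neither was DE. SLC2A1, the basal transporter, had 12859 ± 4916 normalised counts (mean ± SD, n = 5) in control and 16195 ± 8256 with IL-1β, and its log2-fold change was 0.27 with an adjusted p of 0.609. The high-affinity transporter SLC2A3 had -0.53 (adjusted p = 0.320) and was lower in 4 of 5 lines. For both, line 4 gave the highest ratio of the 5 lines.

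Within upper glycolysis, 8 of the 9 genes were lower with IL-1β and PFKM alone was higher. The platelet-type phosphofructokinase PFKP had 18106, 17715, 10489, 14941 and 18045 normalised counts in the controls of lines 1 to 5, and 5845, 7996, 6264, 8773 and 6318 with IL-1β. Every IL-1β library lay below every control. PFKP fell to 0.447 times its control level, with a log2-fold change of -1.16 ± 0.17 (SE, adjusted p = 0.00108). The muscle-type gene PFKM moved the other way, from 2658, 2439, 2692, 1941 and 2225 in the controls to 3131, 3349, 3594, 2962 and 3699. These groups did not overlap either, and its log2-fold change of 0.49 ± 0.11 passed the adjusted p (0.00763) but lay under the fold threshold. The liver-type gene PFKL was lower in 4 of 5 lines (log2-fold change -0.61, adjusted p = 0.0652, and 0.0326 with the line as a block). The log2 ratio of PFKM to PFKP thus changed by 1.65 ± 0.42 (SD, n = 5 lines) between control and IL-1β, and by at least 1.16 in each line.

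The remaining upper enzymes showed smaller differences. GPI, which converts glucose 6-phosphate to fructose 6-phosphate, was lower in each line, and its log2-fold change of -0.67 ± 0.19 passed the adjusted p (0.0234). The hexokinases, which trap glucose in the cell, had log2-fold changes of -0.47 for HK1 and -0.66 for HK2, with adjusted p of 0.0762 and 0.283. With the line as a block both passed the adjusted p, at 0.0131 and 0.0279. TPI1 had -0.47 (adjusted p = 0.115). The aldolases ALDOA and ALDOC, which cleave fructose 1,6-bisphosphate, had -0.13 and -0.06, within the spread of the libraries.

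Both PFKFB genes among the members, whose products make and break fructose 2,6-bisphosphate, were higher in all 5 lines. PFKFB3, whose product strongly favours synthesis of this activator, had 12032, 9378, 8629, 10824 and 11728 normalised counts in the controls and 30610, 24981, 68339, 26474 and 25513 with IL-1β. The groups were separate, and line 3 lay far above the other IL-1β libraries. PFKFB3 rose 3.10-fold, with a log2-fold change of 1.63 ± 0.26 (SE, adjusted p = 0.0015), and leaving out each line in turn gave 1.29 to 1.76. PFKFB4 had 182, 131, 221, 159 and 167 in control and 265, 257, 311, 249 and 261 with IL-1β, also without overlap. Its log2-fold change of 0.66 ± 0.17 passed the adjusted p (0.0169) but not the fold threshold.

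No gene of lower glycolysis was DE without the block, although all 6 had a log2-fold change below 0. GAPDH, often used as a reference gene, had 153500 ± 21771 normalised counts (SD, n = 5) in control and 151430 ± 28090 with IL-1β, and its log2-fold change was -0.03 with an adjusted p of 0.941. PGAM1 (-0.14) and PKM (-0.20), the last enzyme of the pathway, were also within the spread, at adjusted p of 0.527 and 0.490. PGK1, the first of the 2 enzymes that yield ATP, had -0.45 (adjusted p = 0.123), and the enolase ENO1 was lower in all 5 lines with -0.56 (adjusted p = 0.0770). The second enolase, ENO2, varied most. It went from 9527, 8532, 21600, 17509 and 15078 in the controls to 1293, 5793, 8594, 18994 and 6152, so that 4 lines were lower and line 4 was slightly higher. Its log2-fold change was -1.19 ± 0.59 (adjusted p = 0.164), and with the line as a block it passed both thresholds (adjusted p = 0.0469).

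The 15 enzymes from hexokinase to pyruvate kinase together held 1.74%, 1.78%, 1.52%, 1.88% and 2.10% of the normalised counts in the controls of lines 1 to 5, and 1.08%, 1.60%, 1.21%, 1.94% and 1.56% with IL-1β. The share was lower with IL-1β in lines 1, 2, 3 and 5 and slightly higher in line 4, and the groups overlapped.

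**Figure D2:**
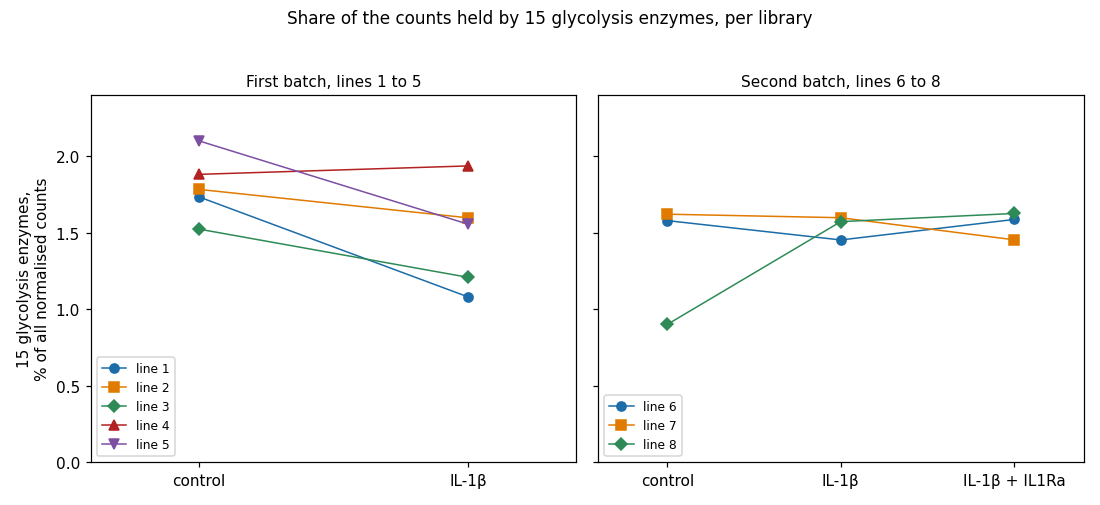
The y axis gives the percentage of all normalised counts in a library that fell on the 15 glycolysis enzymes, and each line joins the libraries of 1 tenocyte line. In the first batch the share was lower with IL-1β in 4 of 5 lines, and in the second batch the line 8 control, at 0.902%, lay below all other libraries.

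The lactate genes split by paralog. SLC16A3 encodes MCT4, the lactate exporter of glycolytic cells, and had 9237, 8085, 6349, 10849 and 16606 normalised counts in the controls against 800, 3575, 857, 9346 and 4350 with IL-1β. Each line was lower with IL-1β, but the drop ranged from -0.22 in line 4 to -3.53 in line 1 on the log2 scale, and the groups overlapped. SLC16A3 fell with a log2-fold change of -1.95 ± 0.64 (SE, adjusted p = 0.0431). SLC16A1, which encodes MCT1, had 0.05 (adjusted p = 0.885). Of the lactate dehydrogenases, LDHA had -0.60 (adjusted p = 0.0972) and was lower in 4 of 5 lines. LDHB, the form of oxidative tissues, was higher in all 5 lines with 0.47 ± 0.14 (adjusted p = 0.0326), under the fold threshold. The log2 ratio of LDHB to LDHA was higher with IL-1β in all 5 lines, by 1.07 ± 0.70 (SD, n = 5), and that of SLC16A1 to SLC16A3 by 2.00 ± 1.42.

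Pyruvate dehydrogenase kinases switch off the complex that feeds pyruvate into the citric acid cycle, and the 3 measured here differed in direction. PDK4, the kinase known for its induction by fasting and glucocorticoids, had 188, 59.4, 12.1, 52.2 and 67.5 normalised counts in the controls and 524, 297, 219, 299 and 299 with IL-1β. Although low, the levels did not overlap, and line 1 was the highest in both groups. PDK4 rose 5.64-fold, with a log2-fold change of 2.50 ± 0.58 (SE, adjusted p = 0.00992), which leaving out each line moved between 2.10 and 2.75. PDK1, a HIF target, was lower in every line, from 8312, 9942, 10326, 14912 and 17678 in the controls to 1636, 5543, 4558, 11658 and 8865. It had -1.14 ± 0.46 (adjusted p = 0.0905) and passed both thresholds with the line as a block (adjusted p = 0.0133). PDK3 was lower in every line with -0.40 (adjusted p = 0.165, and 0.0411 with the block).

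The genes of the HIF alpha subunits were both higher with IL-1β. EPAS1 had 13542, 13037, 5006, 10372 and 7153 normalised counts in the controls and 26909, 20368, 28107, 27454 and 26302 with IL-1β. The IL-1β libraries of lines 1, 3, 4 and 5 lay within 26302 and 28107, although their controls ranged from 5006 to 13542. EPAS1 rose 2.79-fold, with a log2-fold change of 1.48 ± 0.26 (SE, adjusted p = 0.0023). HIF1A went from 34327, 46082, 30544, 43442 and 40595 to 66212, 67544, 68070, 79635 and 67944, again without overlap. Its log2-fold change of 0.85 ± 0.14 passed the adjusted p (0.00186) and lay under the fold threshold. Of the prolyl hydroxylases, EGLN1 had -0.39 (adjusted p = 0.134) and EGLN3, itself a HIF target, had 0.73 (adjusted p = 0.154).

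Among the 7 other hypoxia targets, 4 fell, and BNIP3L, ADM and VEGFA did not pass the test. NDRG1, a stress-response gene known for its induction by hypoxia, had 43024, 21360, 21870, 41453 and 38928 normalised counts in the controls and 2855, 6743, 6925, 15500 and 6512 with IL-1β. All IL-1β libraries lay below all controls. NDRG1 fell to 0.211 times the control level, with a log2-fold change of -2.25 ± 0.39 (SE, adjusted p = 0.00244). ANKRD37, a small ankyrin-repeat gene induced by HIF, went from 763, 836, 485, 755 and 759 to 47.5, 152, 103, 423 and 116. These groups were also separate, with line 4 the least lowered, and ANKRD37 fell with -2.44 ± 0.47 (adjusted p = 0.00387).

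CA9, the cell-surface carbonic anhydrase used as a marker of hypoxia, had 3427, 3176, 2349, 5500 and 6957 normalised counts in the controls and 231, 1547, 257, 3151 and 1360 with IL-1β. The line 4 IL-1β library lay within the range of the controls, and CA9 fell with a log2-fold change of -2.25 ± 0.70 (SE, adjusted p = 0.0351). BNIP3, which targets mitochondria for removal, went from 22091, 15963, 10712, 22191 and 28282 to 4948, 7629, 3507, 18112 and 9392. It too overlapped only through line 4, and fell with -1.34 ± 0.41 (adjusted p = 0.0344). The related BNIP3L stayed between 10999 and 16279 in all 10 libraries, with a log2-fold change of -0.03 (adjusted p = 0.898).

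Both secreted factors among the targets had positive values within the spread of the lines. VEGFA, the main angiogenic factor, was higher in 4 of 5 lines with 0.51 ± 0.33 (SE, adjusted p = 0.283). The vasodilator peptide ADM had 1285, 620, 283, 869 and 1033 normalised counts in the controls and 412, 782, 323, 4037 and 1394 with IL-1β. Line 1 was lower and line 4 was several-fold higher, and the log2-fold change of ADM was 0.31 ± 0.66 (adjusted p = 0.766).

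**Figure D3:**
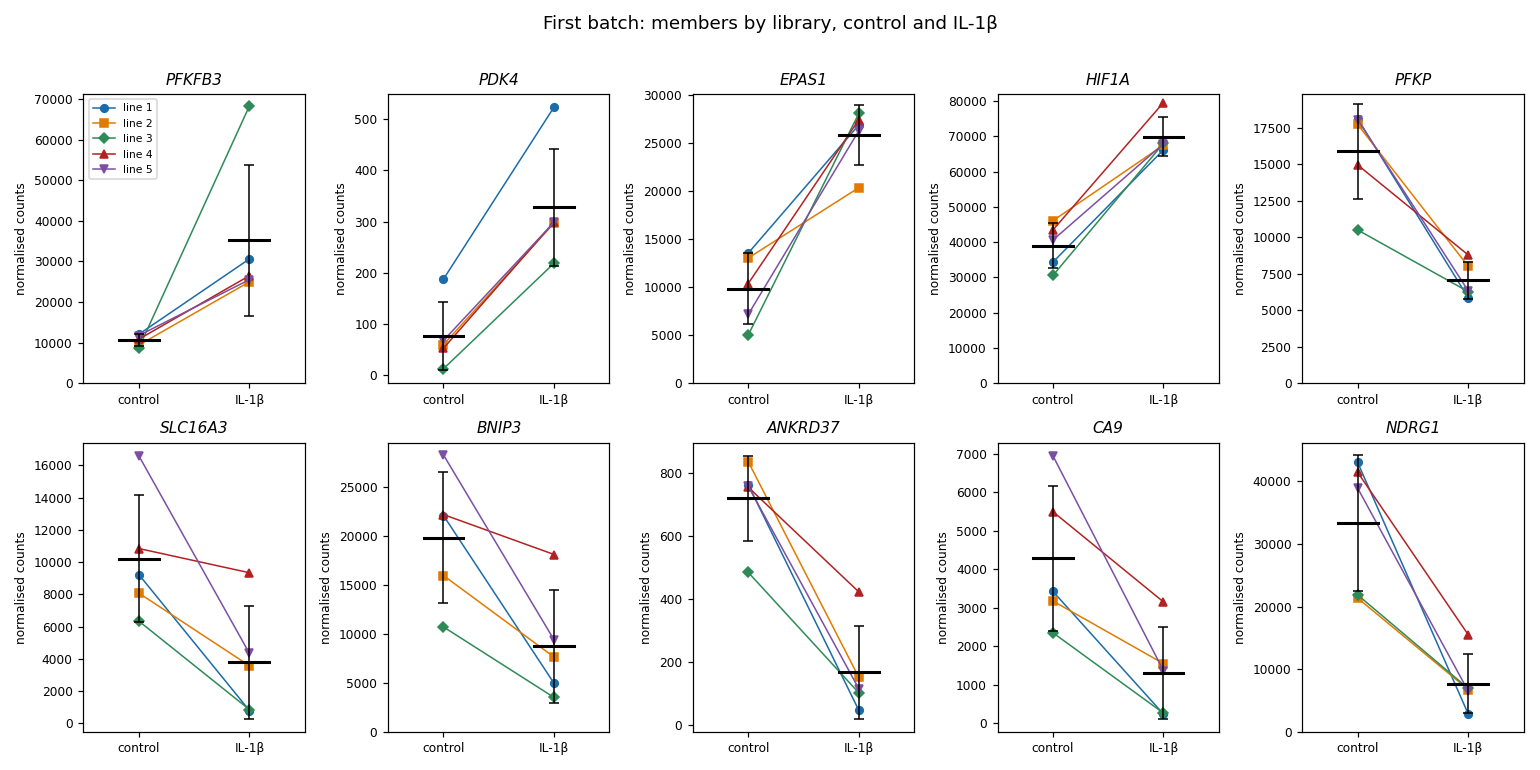
Normalised counts (linear axis from 0) of 10 members in the first batch, with each coloured line joining the control and IL-1β libraries of 1 tenocyte line, and black bars giving the mean ± SD (n = 5). PFKFB3, PDK4, EPAS1 and HIF1A were higher with IL-1β in all 5 lines and the other 6 genes were lower in all 5, with line 4 the highest IL-1β library for the 6 that were lower.

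Leaving out 1 line at a time kept PFKFB3, PDK4, EPAS1, PFKP, ANKRD37 and NDRG1 DE in all 5 fits. SLC16A3 and CA9 lost the call without line 1, 2, 3 or 5 and BNIP3 without line 1, 2 or 5, with adjusted p of up to 0.124, 0.103 and 0.128. All 3 remained DE whichever line was left out once the line was a block in the fit.

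The size of the response differed between the lines. The median log2 ratio over the 37 members was -0.97 in line 1, -0.18 in line 2, -0.32 in line 3, 0.14 in line 4 and -0.37 in line 5, while the median over all genes stayed between -0.02 and 0.02. For the 7 other hypoxia targets it was -2.16, -1.04, -1.61, -0.29 and -1.59 in the same order. Line 1 had the lowest median in both sets and line 4 the highest. The genes that were higher with IL-1β did not follow that order, since line 3 had the largest ratio for PFKFB3 (2.99), PDK4 (4.07), EPAS1 (2.49) and HIF1A (1.16). Without line 4, 26 of the 37 were lower and the median of the members was -0.45, and without line 1 it was -0.23 with 23 lower.

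In the second batch, no member was DE with IL-1β against control, where 57 of 16705 genes were (0.341%), and 7 members had an unadjusted p under 0.05 (18.9%, against 11.4% of all genes). With the line as a block, PFKFB3 and EPAS1 rose, 2 of 37 against 5.18% of all genes, and 12 members had an unadjusted p under 0.05 (32.4%, against 22.2% of all genes). The median log2-fold change over the members was 0.34 with 28 of 37 higher. The median of the members was -0.06 in line 6, -0.07 in line 7 and 0.88 in line 8, and without line 8 it was 0.06 with 20 higher and 17 lower. Groups did not overlap for 6 members, or 16.2%, against 16.4% of all genes.

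PFKFB3 had 4496, 6260 and 3368 normalised counts in the controls of lines 6 to 8, 19006, 15689 and 9712 with IL-1β, and 6722, 14970 and 8449 with IL-1β + IL1Ra. Both treated groups lay above all controls, and line 6 alone came down by more than 2-fold when IL1Ra was added. Its log2-fold change with IL-1β was 1.64 (SE 0.39, adjusted p = 0.142, and 0.0226 with the line as a block), and 1.70 without line 8. EPAS1 had 3284, 8110 and 10268 in control, 9229, 14388 and 26289 with IL-1β, and 8716, 13906 and 15960 with both. Each line was higher with IL-1β, although the groups overlapped because the lines differed in level. EPAS1 had 1.22 (SE 0.52, adjusted p = 0.424, and 0.0286 with the block), and 1.16 without line 8. With the block, leaving out line 7 or line 8 ended both calls, and leaving out line 6 ended that of EPAS1.

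HIF1A had 32472, 19554 and 13521 normalised counts in the controls, 48218, 30272 and 50646 with IL-1β, and 29315, 39468 and 41803 with IL-1β + IL1Ra. It was higher with IL-1β in all 3 lines, by a log2-fold change of 1.04 (adjusted p = 0.338, and 0.178 with the block). Without line 8 the value was 0.60. The paralog pair PFKM and PFKP also separated in this batch. PFKP had 7916, 7509 and 4412 in control, 3304, 4278 and 2846 with IL-1β, and 5234, 4209 and 4215 with both, and its log2-fold change for IL-1β was -0.90 (adjusted p = 0.232, and 0.0490 with the block, under the fold threshold). PFKM had 937, 1248 and 1232, then 1515, 2223 and 1563, then 1257, 1593 and 1431. All 3 IL-1β libraries lay below the controls for PFKP and above them for PFKM, whose log2-fold change was 0.62 (adjusted p = 0.295, and 0.0573 with the block). Without line 8 they had -1.04 and 0.76. The log2 ratio of PFKM to PFKP was higher with IL-1β than in control by 1.52 ± 0.50 (SD, n = 3 lines), and higher with IL-1β + IL1Ra than in control by 0.83 ± 0.48.

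The hypoxia targets that fell in the first batch had mixed values here. NDRG1 had 18302, 22344 and 11473 normalised counts in the controls, 8818, 3852 and 7214 with IL-1β, and 33199, 24316 and 16884 with IL-1β + IL1Ra. The 3 IL-1β libraries were the lowest of the 9. Its log2-fold change against control was -1.42 (SE 0.41, adjusted p = 0.213, and 0.0642 with the block), and it was -1.79 without line 8 and -0.86 without line 7. ANKRD37 had -1.0 (adjusted p = 0.523) and CA9 -0.61 (adjusted p = 0.883), without line 8 they had -1.23 and -0.96, and without line 7 they had -0.28 and -0.32. BNIP3 went from 10210, 17526 and 4078 to 5762, 11222 and 13605, lower in lines 6 and 7 and higher in line 8. SLC16A3 did the same, from 2483, 3655 and 1189 to 1269, 1283 and 3947. Without line 8 the log2-fold change of BNIP3 turned from 0.09 to -0.73 and that of SLC16A3 went from -0.25 to -1.24, neither past the test.

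**Figure D4:**
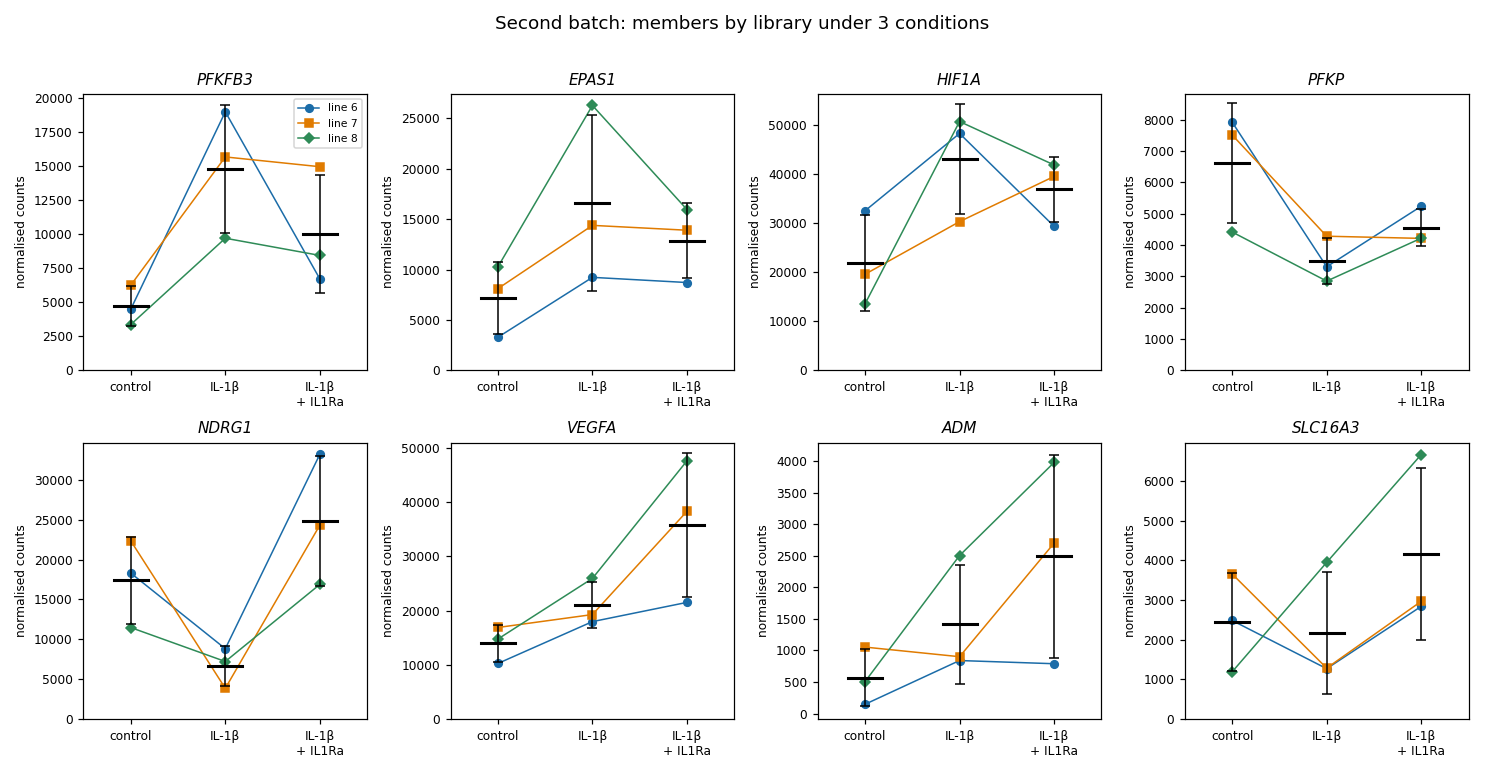
Normalised counts (linear axis from 0) of 8 members in the second batch under control, IL-1β and IL-1β + IL1Ra, with each coloured line joining the libraries of 1 tenocyte line, and black bars giving the mean ± SD (n = 3). For NDRG1 the IL-1β libraries, at 3852 to 8818, were the lowest of the 9, and for VEGFA the IL-1β + IL1Ra library was the highest in each line.

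Of the other genes in the second batch, ALDOC showed the largest single ratio. It had 3467, 2082 and 384 normalised counts in control, 5391, 3918 and 3227 with IL-1β, and 4326, 3507 and 3713 with both, and line 8 was low only as control. The log2-fold change of ALDOC was 1.54 (adjusted p = 0.453), and 0.77 without line 8. SLC2A1 had 6757, 8918 and 6372, then 14191, 10340 and 29134, then 6688, 13623 and 25768. Its IL-1β libraries lay above all controls, with a log2-fold change of 1.16 (adjusted p = 0.455), and 0.64 without line 8. PDK4 was higher in lines 6 and 7 and lower in line 8, with 1.25 ± 1.35 (SE, adjusted p = 0.833), and it had 2.00 without line 8 and 0.79 without line 6. The 6 genes of lower glycolysis had 0.24 to 0.68 and none passed the test, and their median was -0.05 in line 6, 0.19 in line 7 and 1.2 in line 8. Without line 8 they had -0.23 to 0.24, with 4 higher and 2 lower, and the median of the 15 enzymes went from 0.37 to -0.08, with 7 higher and 8 lower. The 15 enzymes held 1.58%, 1.62% and 0.902% of the normalised counts in the controls, 1.45%, 1.60% and 1.57% with IL-1β, and 1.59%, 1.45% and 1.63% with both, so that 8 of the 9 libraries lay between 1.45% and 1.63% and the line 8 control lay below them.

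The second question was whether cells given IL1Ra along with IL-1β differed from control. No member was DE, with or without the block, where 2 genes in all were DE without it (0.012%) and 42 with it (0.251%). With the block, 9 members had an unadjusted p under 0.05 (24.3%, against 13.4% of all genes), and without it 4 did (10.8%, against 5.67%). Groups did not overlap for 7 members, or 18.9%, against 11.8% of all genes. VEGFA had 10242, 16871 and 14740 normalised counts in control, 17953, 19255 and 25918 with IL-1β, and 21497, 38284 and 47582 with IL-1β + IL1Ra. Every line was highest with both agents, and the log2-fold change of VEGFA against control was 1.31 ± 0.35 (SE, adjusted p = 0.595, and 0.118 with the block). ADM had 148, 1053 and 506, then 840, 901 and 2503, then 790, 2700 and 3976, and its log2-fold change was 2.25 ± 0.84 (adjusted p = 0.822, and 0.143 with the block). The lines differed in ADM level by several-fold within each condition. Without line 8 VEGFA had 1.13 and ADM 1.88. The median over the 37 members was 0.51, and without line 8 it was 0.08 with 20 higher and 17 lower.

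The third question was whether IL-1β alone differed from IL-1β with IL1Ra. No member was DE, and no gene was (0%), while 464 of all genes (2.78%) and 1 member (2.7%), NDRG1, had an unadjusted p under 0.05. With the block, 1 gene that is no member was DE (0.00599%), and 3 members, CA9, NDRG1 and VEGFA, had an unadjusted p under 0.05 (8.11%, against 8.38% of all genes). NDRG1 had the largest difference, with a log2-fold change of -1.93 ± 0.41 (SE, adjusted p = 0.857, and 0.199 with the block), lower with IL-1β alone in 3 of 3 lines. It was the only member whose groups did not overlap (2.7%, against 6.47% of all genes). All 7 of the other hypoxia targets were lower with IL-1β alone, from -0.17 for BNIP3L to -1.93 for NDRG1. Their median was -0.79 against -0.0088 over all genes. In 6 of them every line was lower, while 33% of all genes went the same way in every line, counting both directions. Without line 6, 7 or 8 the median of the 7 was -0.93, -0.57 or -0.75. Leaving out 1 line gave NDRG1 -1.57 (without line 7) to -2.29 (without line 8). The medians of these 7 were -0.74, -0.99 and -0.88 in lines 6, 7 and 8. In contrast, the medians of upper and lower glycolysis were -0.10 and 0.09. Of 32 further HIF pathway and hypoxia-responsive genes tested, 18 were lower and 14 higher with IL-1β alone, with a median of -0.10. SLC16A3 was lower in all 3 lines with IL-1β alone, by a log2-fold change of -1.04 (adjusted p = 1.00). The comparisons of the second batch share libraries, so their values are not independent of each other.

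The response to IL-1β was then compared between the batches as the difference of the log2 ratios per line, 5 lines against 3. No gene passed the adjusted p (0% of 14478), and at an unadjusted p under 0.05 there were 4 members, GPI, ALDOC, BNIP3 and CA9, and 785 genes in all (5.42%). The log2 ratio was greater in the second batch for 34 of the 37 members, against 49.8% of all genes. The median difference was 0.57, against -0.00096 over all genes. Line 8 weighs on this, since the median log2 ratio of the members in the second batch was 0.34 with it and 0.06 without it. In the first batch that median was -0.39. BNIP3 had mean log2 ratios of -1.34 and 0.09 in that order of batches, a difference of 1.43 ± 0.61 (SE, adjusted p = 0.908). CA9 had -2.25 and -0.61, a difference of 1.65 ± 0.70 (adjusted p = 0.908). By contrast PFKFB3 had 1.63 and 1.64, EPAS1 had 1.48 and 1.22, and PFKP had -1.16 and -0.90. No member had opposite signs between all lines of one batch and all lines of the other. Batch and line cannot be told apart here, since each line was in 1 batch, and the line 8 control entered the second batch.

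Other genes of the same pathways were taken from lists of further glycolysis, gluconeogenesis and pyruvate genes, of pentose phosphate genes, and of further HIF pathway and hypoxia-responsive genes. Of the 27 genes of the first list tested in the first batch, 6 were DE, 3 in each direction. Of all genes tested there, 4.91% were DE and higher and 7.9% DE and lower. SLC2A6, an intracellular hexose transporter of inflammatory cells, had 501 ± 120 normalised counts (SD, n = 5) in control and 2009 ± 552 with IL-1β and rose with a log2-fold change of 1.99 (adjusted p = 0.000212). SLC16A7, which encodes the transporter MCT2, rose with 1.40 (adjusted p = 0.00182). ENO3, the muscle enolase, fell with -2.27 (adjusted p = 0.000436), and the gluconeogenic genes FBP2 and PCK2 fell with -4.52 (adjusted p = 0.0047) and -1.78 (adjusted p = 0.00193). None of the 8 pentose phosphate genes was DE.

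Of the 33 tested genes of the HIF and hypoxia list, 1 rose and 6 fell in the first batch, against 4.91% and 7.9% of all genes. The carbonic anhydrase CA12, a relative of CA9, rose from 3750 ± 2338 to 15586 ± 7175 normalised counts (SD, n = 5), a log2-fold change of 2.19 (adjusted p = 0.00869). STC2, a secreted stress-response protein, fell from 7310 ± 3431 to 871 ± 396, with -3.09 (adjusted p = 0.000576), and DDIT4, an inhibitor of mTORC1 signalling, fell with -1.29 (adjusted p = 0.0271). Only with the line as a block, HIF3A, a further HIF alpha subunit, rose with 3.23 (adjusted p = 0.00358) and the adenylate kinase AK4 fell with -1.32 (adjusted p = 0.0453). In the second batch no gene of the 3 lists was DE without the block. With it, the genes that passed included SLC2A6, CA12 and PPP1R3C, which rose with IL-1β, and STC2, which fell, with log2-fold changes of 2.14, 2.60, 2.05 and -2.29 (adjusted p = 0.0214, 0.00954, 0.0483 and 0.0117). CA12 also rose with IL-1β + IL1Ra against control, by 2.60 (adjusted p = 0.0401 with the block).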

How the data were processed

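The deposited values were DESeq2-normalised counts per gene (a non-integer signal on a linear scale), 1 table per batch of 29196 gene names, made by the authors from RNA-seq reads of tenocytes in collagen gels. The submitters' processing notes name FastQC, MultiQC, Salmon, R 4.2.1 and DESeq2 1.36, and the study's methods give Salmon quantification with GC-bias correction against the EquCab3.0 horse transcriptome. The strand setting is not given in the sources used here. Each batch was normalised on its own. Raw counts were not recovered, so no count model was run. The sums of normalised counts do not measure the depth of each library, for which the study's methods give only a range of reads per sample.

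Samples were grouped by batch and treatment as labelled, with the tenocyte line as replicate. Values were taken as log2(value + 1), which understates changes of low genes, and genes reaching 10 normalised counts in 5 (first batch) or 3 (second batch) libraries or more were tested with limma 3.58.1 (empirical Bayes with a mean trend, R 4.3.3) and Benjamini-Hochberg adjustment over all genes tested. DE meant an adjusted p under 0.05 and a log2-fold change of at least 1 in either direction. The second batch was fitted with its 3 conditions together. All tests were two-sided, and the scripts were tested on simulated data.

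Lines pair the libraries, since each line is 1 donor. Deviations from the group means correlated at 0.351 to 0.578 between first-batch libraries of a line and at -0.356 to 0.288 between lines. For the second batch these ranges were 0.535 to 0.794 and -0.625 to 0.249. Blocking on the line was an alternative, as were other pseudocounts, filters, scalings, library weights and leaving out each line. The batch difference was a limma fit of per-line log2 ratios. All 37 members are described. Others were named where DE with or without the block, up to 5 per list by size of change. One gene that this rule names is not reported here. The members and lists were chosen with earlier results of these data known.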

Additional observations from a re-analysis of the deposited data

Results flagged for a closer look

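In 13 of the 74 groups of 5 libraries (37 genes, 2 conditions of the first batch), the highest or lowest library lay further from the rest than Dixon's critical value for 5 libraries (0.71) allows. Chance gives about 1 in 20 groups where values are normally distributed and groups are independent. The ratio was taken on the linear scale and the genes share libraries, so 13 of 74 cannot be weighed against that rate. All values are normalised counts.

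With IL-1β, line 3 was high for PFKFB3 at 68339, where the other lines had 24981 to 30610, and for PFKFB4 at 311 against 249 to 265. It was low for SLC16A1 at 5104 against 8079 to 8953. Among controls, line 3 was low for GAPDH at 115727 against 157294 to 168679, and for ANKRD37 at 485 against 755 to 836.

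With IL-1β, line 4 was high for HIF1A at 79635 against 66212 to 68070, for EGLN1 at 3485 against 1999 to 2285, for ANKRD37 at 423 against 47.5 to 152, and for ADM at 4037 against 323 to 1394.

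Line 1 was high for PDK3 in control at 5067 against 2176 to 2802, and with IL-1β it was high for PDK4 at 524 against 219 to 299 and low for ALDOC at 1761 against 5556 to 6409. Line 2 was low for EPAS1 with IL-1β at 20368 against 26302 to 28107.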

How the results depend on the processing

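For the first batch, 9 members were DE, and 8 to 11 were under the other pseudocounts, filters, scalings, library weights and the block. By the adjusted p alone 14 passed, and 20 with the block. SLC16A3 lost its call with no filter (adjusted p = 0.0501) or no trend (0.0573). Leaving out 1 line gave 6 to 9, where 1251 to 1592 genes in all were DE. In the second batch the counts for IL-1β, for IL-1β + IL1Ra and between them were 0. The block gave 2, 0 and 0. By the adjusted p alone the block gave 3 for IL-1β, or 8.11% of the members against 6.1% of all genes. Library weights gave 10, 6 and 1, although these weights did not reach their convergence tolerance there. Leaving out 1 line gave 0 in each comparison without the block, and 0 to 2, 0 to 1 and 0 with it. With the block these fits gave 0 to 1331, 0 to 514 and 0 to 163 DE genes in all. Beyond ENO2, PDK1, PFKFB3 and EPAS1, the block changed no DE call of a member. DE genes in all went from 1885 to 1251 without line 5, 4078 by the adjusted p alone and 6363 with the block added. For IL-1β in the second batch they went from 57 to 865 with the block, 3334 with weights, 34 with no trend or 2 conditions only, and 0 to 339 leaving out a line. For the other two comparisons, 2 and 0 became 42 and 1 with the block and 1884 and 137 with weights.

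Directions turned for genes that had not passed the test. All members were followed singly in the first batch, but only a chosen part of them in the second. Scaling to the same total moved the median of all genes to -0.19 for IL-1β and -0.11 between the treated groups in the second batch, and gave BNIP3 -0.093 for IL-1β and ALDOC -0.010 between them. Library weights gave SLC16A1 -0.037 in the first batch, then in the second SLC16A3 0.051 and BNIP3 -0.31 for IL-1β, CA9 -0.45 and NDRG1 -0.17 for IL-1β + IL1Ra, and ALDOC -0.14 and PDK4 -0.20 between the treated groups. Leaving out 1 line gave ADM -0.17 to 0.79, ALDOC -0.22 to 0.21, BNIP3L -0.058 to 0.016 and GAPDH -0.093 to 0.045 in the first batch. In the second it gave BNIP3 -0.73 to 0.55 and SLC16A3 -1.24 to 0.38 for IL-1β, ANKRD37 -0.69 to 0.25, CA9 -0.24 to 0.78 and SLC16A3 -0.054 to 1.34 for IL-1β + IL1Ra, and ALDOC -0.021 to 0.24, HIF1A -0.053 to 0.50, PDK4 -0.24 to 0.43 and SLC2A1 -0.11 to 0.63 between the treated groups. Over all 37 members, leaving out line 8 took the number lower than control from 9 to 17 for IL-1β. For IL-1β + IL1Ra it went from 4 to 17. The cause of these turns was not tested. With 3 lines, the second batch gives wide intervals.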
